A study of Mus musculus with 17 samples.

Results

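Hemidesmosomes anchor epithelial cells to the basement membrane, and 9 genes of hemidesmosomes, laminins and laminin receptors were followed here in mammary tumors of CUX1 transgenic mice. The 9 genes were chosen by name: Itga6 and Itgb4, the chains of integrin α6β4, Itga3 and Cd151, Col17a1 and Dst, and the laminin chain genes Lama3, Lamb3 and Lama5. They made up 9 of the 27670 genes on the array and were read by 23 of its 41174 probes. RNA came from microdissected epithelial tumor cells of 17 FVB mice, 1 tumor each, of which 9 carried a p75-CUX1 and 8 a p110-CUX1 transgene, both under the mouse mammary tumor virus promoter, which drives expression in mammary epithelium but not only there. GEO's labels give 4 adenosquamous carcinomas (all p75), 9 solid carcinomas (3 p75 and 6 p110), 2 adenomyoepitheliomas (p75-90 and p110-374), 1 adenocarcinoma (p75-216) and 1 adenoma (p110-98). The study's own heatmap of Wnt genes on these arrays put 5 tumors in a high, 5 in a medium and 7 in a low cluster, and none of the 9 genes is a Wnt gene. No ages, untreated tissue or nontransgenic mammary gland were among the samples, so each value is the log2 ratio of tumor over a universal mouse reference RNA (0 means equal signal in both), and a positive ratio does not mean that a gene is higher than in normal gland. Tumors are named by transgene and mouse, as in p75-80.

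Integrin α6β4 spans the basal membrane of an epithelial cell and binds laminin-332, a laminin trimer to which Lama3 and Lamb3 contribute chains. Inside the cell the long β4 tail is tied to keratin filaments by plectin and by BP230, the epithelial product of Dst, while collagen XVII (Col17a1) and the tetraspanin CD151 complete the plaque. In the mammary gland these structures are a feature of the basal, myoepithelial layer that lies on the basement membrane.

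The array reads each gene through 60-base oligonucleotides, and the first 30 bases of those on which the results turn are shown 5′ to 3′. Coordinates are those of the scanner files, build mm7, for which exon annotation was not used here. The 2 bright Itgb4 probes share 50 of their 60 bases, in capitals where they overlap within the part shown, so they count as 1 reading of the gene. The 3 Dst probes are shown because they read different parts of a long locus, and the first lies on the opposite strand to the gene.
Itgb4, brightest probe, chr11:116117288-116117347, plus strand: CATAAAGTGGGTAGAGGTGAtacaaggtct
Itgb4, second probe, chr11:116117278-116117337, plus strand: gtccaggaacCATAAAGTGGGTAGAGGTGA
Col17a1, brightest probe, chr19:47546901-47546960, minus strand: ggcacagttggtttttatttaagcactttc
Dst, brightest probe, chr1:34399906-34399965, minus strand: ataatttggggcttaaaagctcaacttcct
Dst, variant e probe, chr1:34406164-34406223, plus strand: gaaagctgattttgatttccacacaggact
Dst, probe downstream of variant e, chr1:34406770-34406829, plus strand: tttactttggttgagactttggaaataaaa

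Signal differed between arrays and has to be read beside the values. Between 18.3% and 61.9% of probes gave a tumor color well above background, which here means on each array of that tumor. In p110-98, p110-225 and p110-374 the reference was 8.12 to 10.5 times brighter than the tumor (95th percentile of signal), against at most 4.04 times elsewhere. In p110-121, labelled a solid carcinoma of epithelial cells, the epithelial keratins Krt8 and Krt18 were at -4.24 and -4.82, Epcam was not well above background, only 3 of 8 epithelium markers were, and the mean of 8 immune markers was 2.44, the highest of the 17 tumors. These markers go against the epithelial label of that tumor, which the study's own listing of the tumors by type leaves out, so its type rests on GEO's label alone. In p110-314 and p110-416 Krt8 was at 1.90 and 1.66, while the basal keratin Krt5 was at only 0.36 and 0.45. The scan year was one for every p75 array and a different one for every p110 array, so transgene and scan year cannot be told apart. In such samples fewer cells of one type and less RNA per cell cannot be told apart either.

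Itgb4, the β4 chain, was above the reference in 17 of 17 tumors, with a lowest log2 ratio of 1.37 (p110-121), a median of 3.67 and a highest of 5.74 (p75-80), and its color was well above background in all of them. Col17a1, a transmembrane collagen of the plaque, reached further in both directions. It ran from 2.31 to 6.59 in 14 tumors and was not well above background in p110-121, p110-314 and p110-416, where the ratios were -0.30, -0.83 and -0.64. These are the 3 tumors with the lowest Krt5 and the lowest Trp63 ratios, Trp63 being the transcription factor of basal epithelium. The reference color of Col17a1 was not well above background in 7 of the 9 p75 tumors and was in all 8 p110 tumors, so the p75 ratios rest on a reference near background. Its tumor color was well above background in 6 of 9 solid carcinomas, 5 of 8 p110 and 5 of 7 low-Wnt tumors, so the lowest values of those groups are at background and their differences from other groups are not exact sizes. The part of this in the values below was not tested. Itga6, the α6 chain that pairs with β4, was well above background in every tumor and ran from -0.74 (p110-121) over a median of 1.38 to 2.75 (p110-360). Cd151, which binds laminin-receptor integrins, lay in a narrow band from -0.23 to 1.40 around a median of 0.63. Itga3, the α3 chain of the other laminin-332 receptor, stayed between -0.38 and 0.73 and was well above background in 13 tumors.

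**Figure D1:**
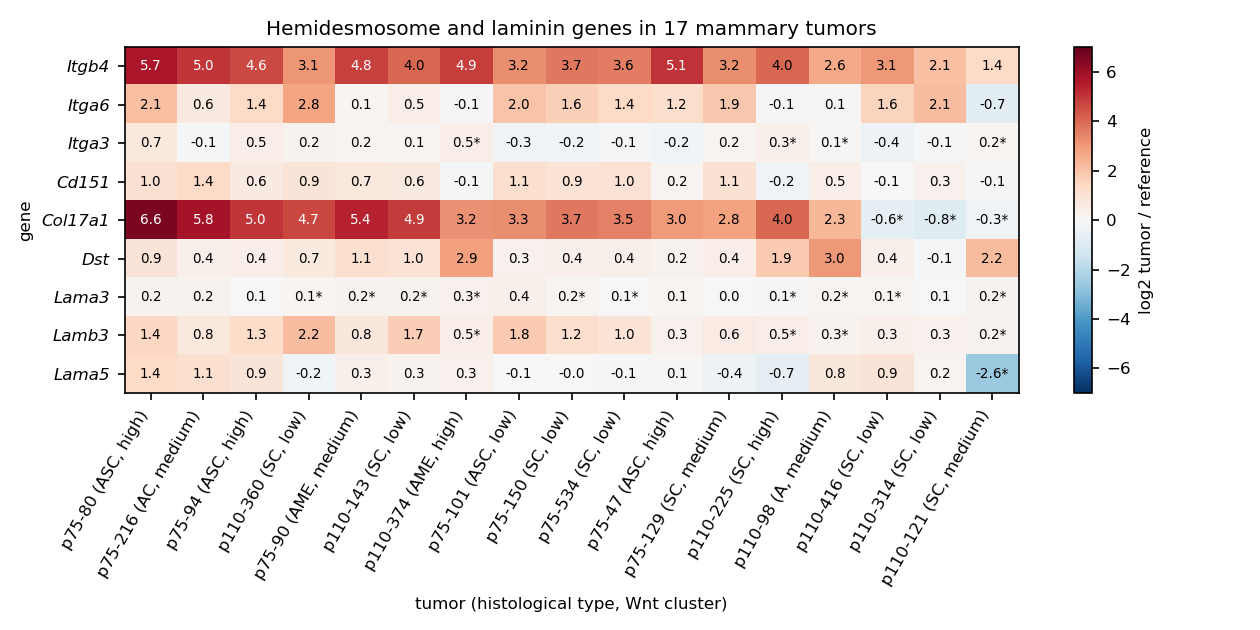
Log2 ratio of tumor over reference for the 9 genes (rows) in the 17 tumors (columns), ordered by the mean of the members; ASC, SC, AME, AC and A stand for adenosquamous and solid carcinoma, adenomyoepithelioma, adenocarcinoma and adenoma, the second word is the Wnt cluster, and an asterisk marks a tumor color not well above background. Itgb4 was above 0 in all 17 tumors, and Col17a1 was below 0 in the 3 tumors at the right, p110-416, p110-314 and p110-121.

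Among the laminin chains, Lamb3, the β3 chain found only in laminin-332, ran from 0.24 (p110-121) to 2.18 (p110-360) with a median of 0.75 and was well above background in 13 tumors. Its reference color was well above background in 6 of the 17, so most of its ratios have a reference near background. The 4 tumors in which its tumor color was not well above background are the 3 with the faint tumor color and p110-121. Lama5, the α5 chain of laminins of most epithelial basement membranes, ran from -2.61 in p110-121, where it was not well above background, to 1.41 in p75-80, with a median of 0.19. The brightest probe of Lama3, the α3 chain, hardly varied (0.03 to 0.37) and was well above background in 7 tumors. The brightest probe of Dst ran from -0.14 to 3.05, and its 4 highest ratios were those of p110-98 (3.05), p110-374 (2.87), p110-121 (2.22) and p110-225 (1.85), that is, of the 3 tumors of faint color and the tumor with 3 of 8 epithelium markers above background. Their part in the Dst values was not tested.

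Adenosquamous and solid carcinomas were compared first, since squamous differentiation marks the tumors that the study set beside a Wnt-driven model. By limma, 0% of the 27670 genes were called at an adjusted p under 0.05 (0 genes, and 1529 genes, 5.53%, at an unadjusted p under 0.05), and 0 of the 9 members were called (1 at an unadjusted p under 0.05). The median difference of the 9 genes was 0.32 on the log2 scale, against -0.01 over all genes, and 8 of 9 were positive, against 47.5% of all genes. Marker lists of other cell types and states moved beside them, with 0 genes called by limma in any. Of the 10 squamous markers 7 were higher on average in the adenosquamous carcinomas and 5 passed an unadjusted p under 0.05 (median difference 0.23), but only 2 of the 10 were well above background in at least 12 tumors and 2 were so in none. Their mean was 1.26 in p75-80 and 0.80 in p75-94, but 0.09 in p75-47 and 0.08 in p75-101, within the -0.02 to 0.14 of the solid carcinomas. Of the 10 basal and myoepithelial markers 6 were higher and 3 passed unadjusted (median 0.22), and all 8 immune markers were lower on average, with 0 passing unadjusted (median -0.27). The part of these lists in the values of the members was not tested. Itgb4 was at 5.74 in p75-80, 5.06 in p75-47, 4.63 in p75-94 and 3.23 in p75-101 among the adenosquamous carcinomas, and at a lowest of 1.37, a median of 3.25 and a highest of 4.04 in the 9 solid carcinomas. Thus 3 of the 4 adenosquamous tumors lay above every solid one, and p75-101, the adenosquamous tumor of the low-Wnt cluster, lay among them. Itgb4 averaged 4.67 ± 1.06 (SD, n = 4) in the former and 3.14 ± 0.88 (SD, n = 9) in the latter. The difference was 1.53 (SE 0.51), or 2.89-fold, with a limma adjusted p of 0.872 and an exact two-sided permutation p of 0.0196 for this gene alone.

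Col17a1 was at 6.59 in p75-80, 5.00 in p75-94, 3.26 in p75-101 and 2.97 in p75-47, and at a lowest of -0.83, a median of 3.50 and a highest of 4.91 in the solid carcinomas. The groups overlapped, and the difference of 2.03 (SE 1.23) was less certain, with an exact permutation p of 0.169. It was 1.32 without p75-80 and 1.01 with scan year as a block, and reached 4.00 with the signals processed by the scanner software. Its reference color was not well above background in 3 of the 4 adenosquamous and 2 of the 9 solid carcinomas, and the part of this in the difference was not tested. Lama5 differed by 0.87 (SE 0.50, exact permutation p = 0.147), and the other 6 members by -0.34 (Dst) to 0.46 (Itga6). Adjusted p-values over all genes were 0.872 to 0.904 for the 9 members. All 4 adenosquamous carcinomas were p75 tumors, and p75-47, p75-80 and p75-94 are also the high-Wnt tumors of that transgene. Within p75 tumors alone the difference was 1.16 for Itgb4 and 1.12 for Col17a1, and that of Cd151 turned from 0.24 to -0.27. Without the 3 tumors of faint color and p110-121 it was 1.41 for Itgb4, 1.87 for Col17a1 and 0.49 for Lama5.

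**Figure D2:**
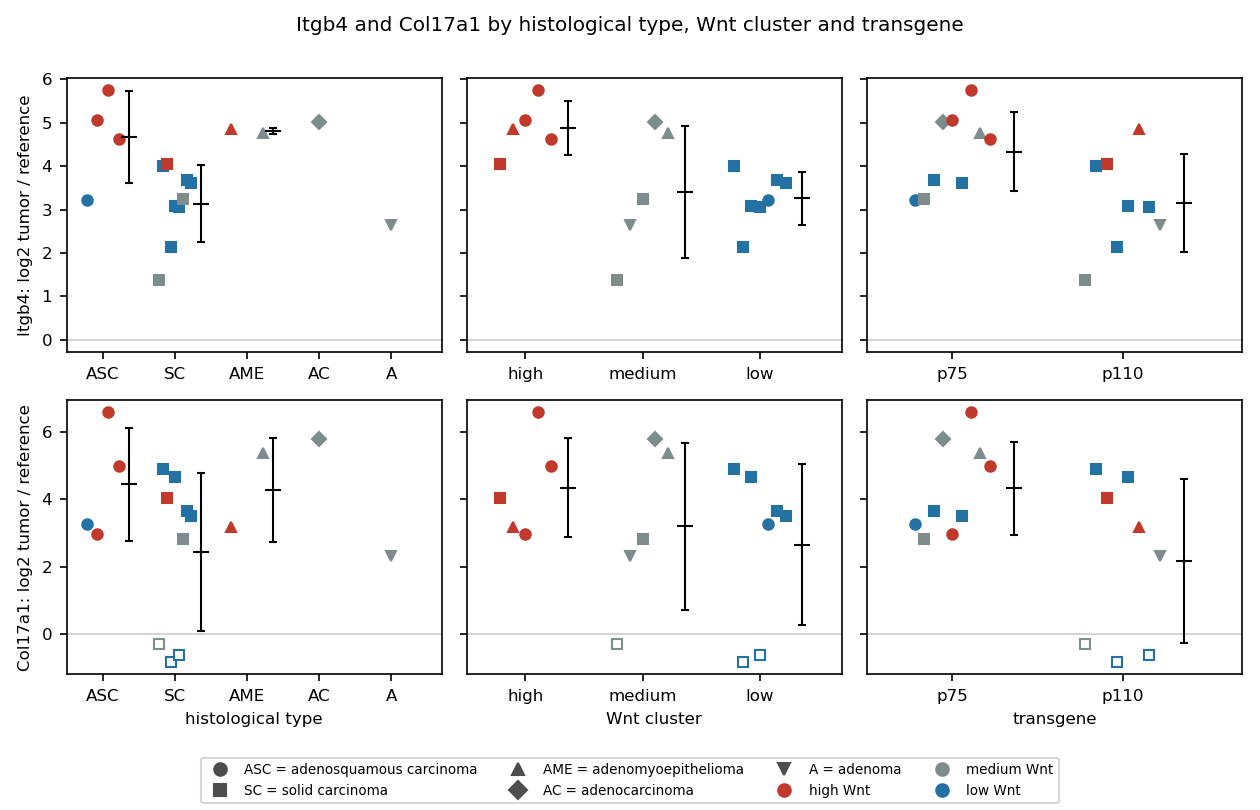
Log2 ratio of tumor over reference of Itgb4 (top) and Col17a1 (bottom) for each tumor by histological type, Wnt cluster and transgene; shapes give the type, colors the Wnt cluster, open symbols a tumor color not well above background, and black bars the mean and SD of groups of 2 or more tumors. The 5 high-Wnt tumors held Itgb4 ratios of 4.04 to 5.74, all above the 2.13 to 4.00 of the 7 low-Wnt tumors, whereas Col17a1 overlapped in each grouping. The 5 medium-Wnt tumors held Itgb4 ratios of 1.37 to 5.02 and overlapped both other clusters.

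High-Wnt tumors were then set against low-Wnt tumors, the contrast in which the study looked for factors that accompany Wnt gene expression. Limma called 69 of 27670 genes (0.249%), and 0 of the 9 members (2 at an unadjusted p under 0.05, which 12.1% of all genes passed). The median difference of the members was 0.26 against 0.02 over all genes, and 5 of 9 were positive against 55.1% of all genes. In the high-Wnt cluster Itgb4 was highest in the adenosquamous carcinomas p75-80 (5.74) and p75-47 (5.06), followed by the adenomyoepithelioma p110-374 (4.86), p75-94 (4.63) and the solid carcinoma p110-225 (4.04). In the low-Wnt cluster its lowest ratio was 2.13 (p110-314), the median 3.23 and the highest 4.00 (p110-143). The 5 medium-Wnt tumors ran from 1.37 to 5.02, and p75-216 (5.02) and p75-90 (4.76) lay within the high-Wnt range, so high Itgb4 was not particular to that cluster. The high and low groups did not overlap, although p110-225 and p110-143 were almost level. Of all genes with values to compare, 1.71% did not overlap between these groups, and of the members Itgb4 was the only one that did not. Itgb4 averaged 4.87 ± 0.62 (SD, n = 5) in the high and 3.25 ± 0.60 (SD, n = 7) in the low cluster. The difference was 1.61 (SE 0.54), or 3.06-fold. The exact permutation p for Itgb4 alone was 0.00126, the smallest that 5 against 7 tumors allow, and its limma adjusted p was 0.223. The difference was 1.65 within p75 tumors and 1.38 within p110 tumors. The high-Wnt p75 tumors p75-47, p75-80 and p75-94 are all adenosquamous carcinomas. Of the low-Wnt p75 tumors, p75-150 and p75-534 are solid and only p75-101 is adenosquamous, so within p75 the Wnt cluster and the histological type can hardly be told apart. The only high-Wnt p110 tumors, p110-225 and p110-374, are both of faint color and no low-Wnt p110 tumor is, so within p110 the Wnt cluster and the faint color cannot be told apart. Loess bends the ratio to be even over brightness. With each array centered on its median in place of loess, the Itgb4 difference was 0.69 (limma adjusted p = 0.84).

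Itga3 showed the other low unadjusted p in this contrast. Its ratio was 0.73 for p75-80, 0.48 for p110-374, 0.46 for p75-94, 0.35 for p110-225 and -0.19 for p75-47, against a lowest of -0.38, a median of -0.11 and a highest of 0.24 in the low-Wnt tumors. Only p75-47 fell within the low-Wnt range, and in p110-374 and p110-225 the tumor color was not well above background. The difference was 0.46 (SE 0.14, limma adjusted p = 0.17). The partner chain did not follow β4: Itga6 was lower in high-Wnt tumors on average, with a difference of -0.80 (SE 0.49, limma adjusted p = 0.553), which was -1.84 within p110 and -0.08 within p75 tumors. The p110 values rest on the 2 faint tumors named above, as does a test of that difference between transgenes, which gave a limma adjusted p of 0.375 for Itga6. For the brightest Dst probe the difference was 1.87 in p110 and 0.17 in p75 tumors (interaction adjusted p = 0.156), and without the 3 tumors of faint color its high-Wnt minus low-Wnt difference was 0.10 in place of 0.83. With median centering Itga3 was at 0.07, Dst at 0.19, Itga6 at -1.65 and Cd151 at -1.36. Leaving out the 3 faint tumors moved Itga6 to -0.12 and Cd151 from -0.41 to -0.09, and gave 1.89 for Itgb4. The high-Wnt tumors then left, p75-47, p75-80 and p75-94, are all p75 adenosquamous carcinomas, while the low-Wnt tumors are solid apart from p75-101 and include p110 tumors. In these values the Wnt cluster cannot be told apart from type and transgene. Over all tumors Col17a1 differed by 1.70, by 1.12 without p110-314, and by 3.55 with the signals processed by the scanner software.

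Marker lists moved in the same contrast, with 0 genes called by limma in the lists given here. Of the 10 basal and myoepithelial markers 9 were higher on average in high-Wnt tumors and 3 passed an unadjusted p under 0.05 (median difference 1.44). Of the 10 squamous markers 8 were higher and 5 passed (median 0.32), with the limit of signal given above. Of the 8 endothelium markers 2 were higher and 2 passed (median -0.55), and of the 6 adipocyte markers 0 were higher and 0 passed (median -0.85). The part of these lists in the differences of Itgb4 and the other members was not tested.

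The p75 and p110 tumors differed in more genes. Limma called 141 (0.51%), 56 of them higher in p75 tumors (0.202%) and 85 lower (0.307%), but 0 of the 9 members. At an unadjusted p under 0.05 it passed 4 members, against 13.9% of all genes, and the median difference of the members was 0.49 against 0 over all genes. Cd151 came closest: it ran from 0.18 to 1.40 with a median of 1 in p75 tumors, and from -0.23 to 0.92 in p110 tumors. The ranges overlapped, with averages of 0.90 ± 0.35 (SD, n = 9) for p75 and 0.23 ± 0.42 (SD, n = 8) for p110. The difference was 0.67 (SE 0.18), or 1.59-fold, with a limma adjusted p of 0.0986 and an exact permutation p of 0.00399. The other 3 were Itgb4, with a difference of 1.18 (SE 0.48, limma adjusted p = 0.264), Col17a1, with 2.16 (SE 0.91, limma adjusted p = 0.287), a value that compares ratios over unlike references as given above, and the brightest Dst probe, with -0.98 (SE 0.39, limma adjusted p = 0.255), which lies on the strand opposite to the gene and need not read its mRNA. In the solid carcinomas alone, which both transgenes gave, the differences were 0.76 for Cd151, 0.56 for Itgb4, 1.35 for Col17a1 and -0.60 for Dst. Without the 3 tumors of faint color and p110-121 they were 0.45 for Cd151, 1.26 for Itgb4, 2.30 for Col17a1 and 0.02 for Dst. The p110 tumors then left, p110-143, p110-314, p110-360 and p110-416, are all low-Wnt solid carcinomas. The p75 tumors are of mixed type and cluster, so transgene, type and cluster cannot be told apart there. With histological type as a block the differences were 0.78 for Cd151, 0.42 for Itgb4, 1.52 for Col17a1 and -0.82 for Dst. The 8 immune markers were all lower in p75 tumors on average (median difference -0.41), and 1 of the 8 was called by limma. Of the 8 epithelium and the 10 basal and myoepithelial markers, 6 each were higher in p75 tumors (median 0.63 and 0.59), with 0 called by limma and 2 each at an unadjusted p under 0.05. The part of these lists in the values of the members was not tested.

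The p75 contrast, too, depended on how the 2 colors were brought together. With median centering in place of loess, limma called 1190 genes, 1114 of them higher in p75 tumors, and 3 members: Itgb4 (2.49, adjusted p = 0.0175), Col17a1 (2.75, adjusted p = 0.0481) and Cd151 (2.04, adjusted p = 0.0487). Loess is the setting with which the deposited values were made.

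**Figure D3:**
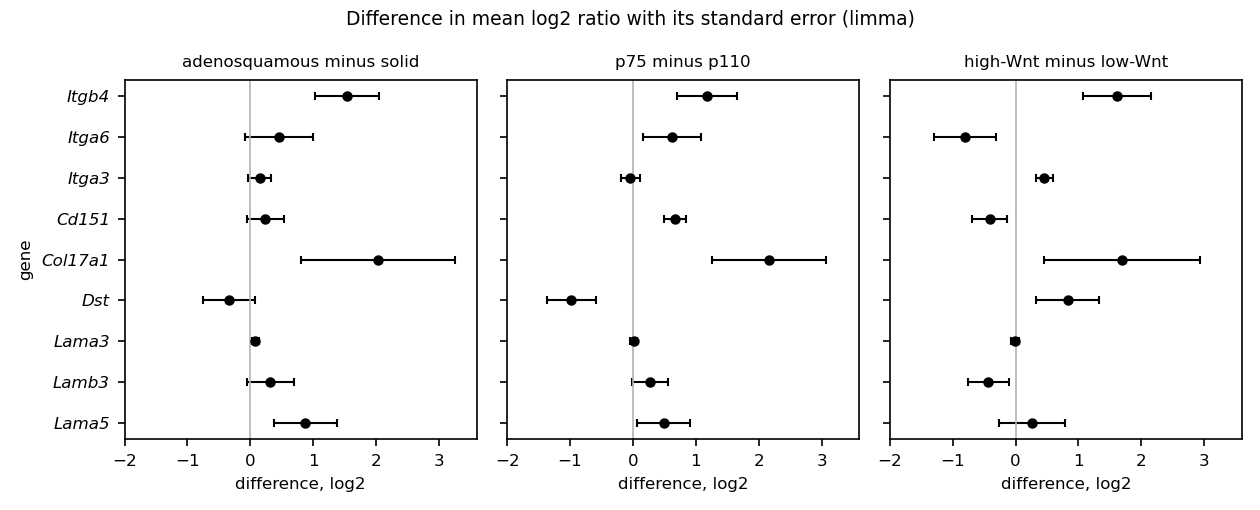
Difference in mean log2 ratio for each of the 9 genes in the 3 comparisons, with bars of 1 standard error from limma, where a point right of 0 is higher in the first-named group. Itgb4 lies at 1.53, 1.18 and 1.61 and Col17a1, whose reference was near background in 7 p75 tumors, at 2.03, 2.16 and 1.70, and no point passed an adjusted p under 0.05.

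Lama3 and Dst were read differently by different probes, and the choice of the brightest probe decided what was seen. The second probe of Lama3 was well above background in 10 tumors and ran from 0.03 (p110-121) to 3.21 (p75-80). The next highest were p75-94 (2.50), p75-216 (2.01), p75-90 (1.74), p110-360 (1.65) and p75-101 (1.61). Its r over the 17 tumors with the mean of the other 8 members was 0.86, against 0.23 for the brightest probe. Where it stood for the gene, Lama3 differed by 1.42 between adenosquamous and solid carcinomas (limma adjusted p = 0.869) and by 0.49 between Wnt clusters (limma adjusted p = 0.747). It was well above background in 9 of 9 p75 but 1 of 8 p110 tumors, so the value of 1.06 between transgenes (limma adjusted p = 0.157) compares a measured group with one mostly at background and gives no size. Neither do the other differences, since it was well above background in 4 of 4 adenosquamous but 4 of 9 solid carcinomas, and in 3 of 5 high-Wnt and 4 of 7 low-Wnt tumors.

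Dst gives rise to several proteins, of which the variant e product is the epithelial BP230 and others serve nerve and muscle. Of its 7 probes, 6 lie on the strand of the gene and the brightest on the other, so the latter need not read Dst mRNA. Its r with the mean of the other members was -0.31. The variant e probe was well above background in 1 tumor only. The probe downstream of it lies 547 bases beyond on the same strand, was well above background in 11 tumors, and had an r of 0.76 with the mean of the other members. It was highest in p75-80 (2.65), p110-143 (1.97), p110-360 (1.57) and p75-94 (1.43). Its differences were 0.63, 0.59 and 0.55 in the adenosquamous, p75 and high-Wnt comparisons, where the brightest probe gave -0.34, -0.98 and 0.83. The variant a probe, on the strand of the gene, was well above background in 14 tumors and had an r of -0.14 with the mean of the other members. It gave -0.07, -0.17 and -0.25, so the sign depends on the probe in each comparison. The remaining Dst probes were well above background in 1 tumor or none. The probe downstream of variant e was well above background in 8 of 9 p75 but 3 of 8 p110 tumors. It was below 0 and not well above background in p110-314 (-1.04), p110-416 (-0.62), p110-98 and p110-121. These probes were singled out after their values were seen, and the r values describe 17 tumors that share the array and the reference.

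**Figure D4:**
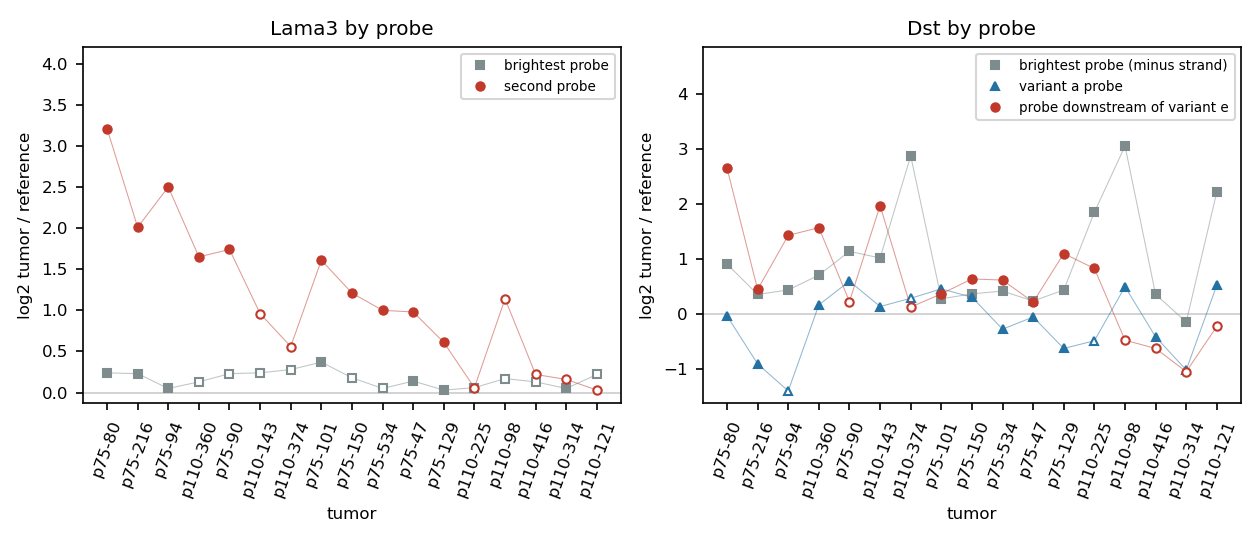
Log2 ratio of tumor over reference in the 17 tumors, ordered from left to right by the mean of the members, for both probes of Lama3 and 3 of the 7 probes of Dst; open symbols mark a tumor color not well above background, and lines only join the points of 1 probe. The second Lama3 probe fell from 3.21 in p75-80 to 0.03 in p110-121 while the brightest stayed within 0.03 to 0.37, and the minus-strand Dst probe was highest in p110-98 and p110-374.

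Probes of the other members were not alike either. The second Col17a1 probe was dimmer (5 tumors well above background) and followed the first with an r of 0.74, with differences of 0.84, 0.75 and 0.47 in the adenosquamous, p75 and high-Wnt comparisons. It was well above background in 3 of 4 adenosquamous but 1 of 9 solid carcinomas, in 4 of 9 p75 but 1 of 8 p110 tumors, and in 3 of 5 high-Wnt but 1 of 7 low-Wnt tumors. These differences therefore give no size. The remaining Itgb4 probe, elsewhere in the gene, was well above background in 5 tumors and did not follow the 2 bright ones (r = -0.03). Its differences were -0.27 and -0.33 in the adenosquamous and high-Wnt comparisons, against the sign of the bright probes, and 0.09 in the p75 comparison. The dimmer Itga6 probes, well above background in only 4 and 5 tumors, had r of 0.29 and 0.55 with the brightest. Their differences were -0.15 and -0.27 in the p75 comparison, where the brightest gave 0.62, and 0.14 and -0.57 in the high-Wnt comparison, where it gave -0.80. The dimmer Itga3 probes, well above background in 12 and 4 tumors, had r of 0.21 and 0.73. Their differences were -0.03 and 0.51 in the adenosquamous, -0.05 and 0.14 in the p75 and 0.26 and 0.44 in the high-Wnt comparison. Differences of probes well above background in 5 tumors or fewer come mostly from values at background and give no size. Cd151, Lamb3 and Lama5 had 1 probe each.

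RNA ratios of genes whose proteins bind each other were compared tumor by tumor in 6 pairs, with permutation p-values adjusted over the 6. No protein was measured. Itgb4 and Col17a1 varied together, with a Pearson r of 0.78 (permutation p = 0.00017, adjusted p = 0.00102) and a Spearman rho of 0.71 (permutation p = 0.0019, adjusted p = 0.0114). Without p75-80 and p110-121, the tumors farthest from the Itgb4 median, r was 0.67 (permutation p = 0.005, adjusted p = 0.03), and rho was 0.59 (adjusted p = 0.134). Within p75 tumors r was 0.77 (exact permutation p = 0.0217, adjusted p = 0.13) and within p110 tumors 0.69 (exact permutation p = 0.0641, adjusted p = 0.369). The integrin partners Itga6 and Itgb4 gave r = 0.03 (rho = -0.13, permutation p = 0.911 for r and 0.631 for rho, both unchanged by adjustment). Itga6 and Cd151 gave 0.52 (rho = 0.54, adjusted permutation p = 0.103 and 0.076), Lama3 and Lamb3 0.29, Lamb3 and Itgb4 0.20, and Itga3 and Cd151 -0.08, with adjusted permutation p-values for r of 0.524, 0.655 and 0.911. These values also moved with the normalization: with median centering Itga6 and Itgb4 gave 0.65 (rho = 0.48), Itga6 and Cd151 0.90 (rho = 0.81) and Itga3 and Cd151 0.80 (rho = 0.81). Adjusted permutation p-values for r were then 0.00702, 6e-05 and 0.00054, and for rho 0.0808, 0.00096 and 0.00096, so these pairs, which did not pass with loess, passed by r with median centering. Itgb4 and Col17a1 gave 0.72 (adjusted permutation p = 0.00228).

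Over the 17 tumors, the mean of 8 members (each centered on its own mean, without Lama3, whose brightest probe was above background in too few tumors) was highest in p75-80 (1.14) and lowest in p110-121 (-1.32), p110-314 (-0.86) and p110-416 (-0.71). Of 9472 genes above background in at least 12 tumors, those most like this profile by Pearson r included Trim29 (0.87), Lmo1 (0.87), Trp63 (0.85), the receptor gene Egfr (0.85), the kinase gene Csnk1a1 (0.83), Irx4 (0.83) and Lypd3 (0.83). The order describes these tumors and carries no test. The members were centered but not scaled to one spread, so Col17a1 (SD 2.18) and Itgb4 (SD 1.16) weigh more in the mean than Cd151 (SD 0.51) or Itga3 (SD 0.30). Dst enters it by the probe on the opposite strand. The mean of the other members used above was made in the same way.

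**Figure D5:**
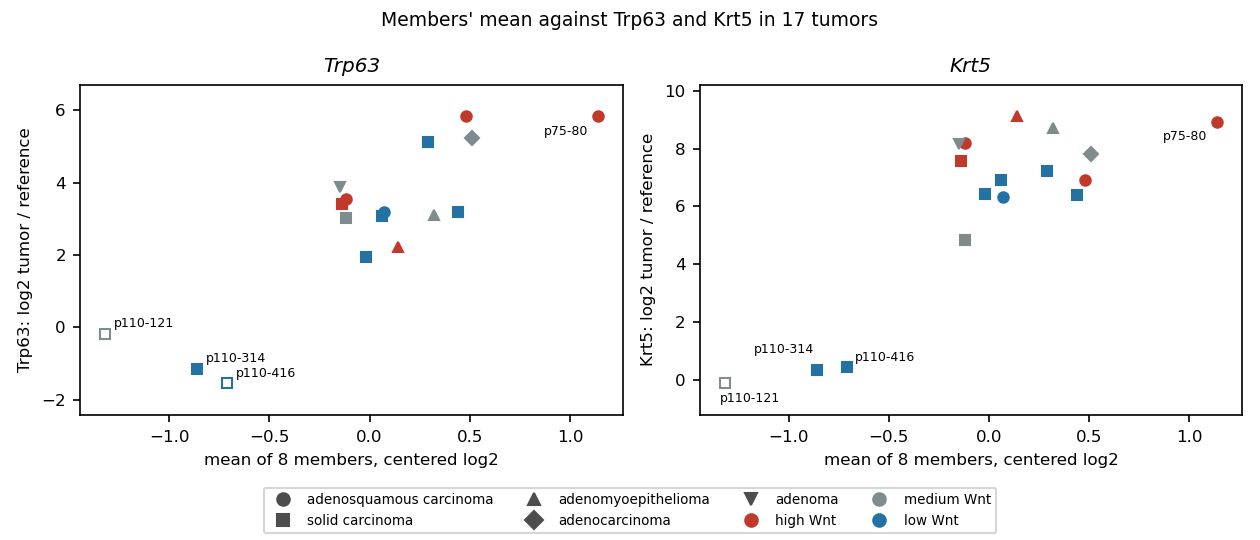
Log2 ratio of Trp63 and Krt5 (vertical axes) against the mean of 8 members, each centered on its own mean (horizontal axis, log2), in the 17 tumors; shapes give the histological type, colors the Wnt cluster, and open symbols a tumor color not well above background. Trp63 was between -1.54 and -0.17 and Krt5 was between -0.11 and 0.45 in the 3 tumors with the lowest members' mean.

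Among the 10 genes of hemidesmosome and anchoring partners, 0 were called by limma in any comparison, and 3, 2 and 3 passed an unadjusted p under 0.05 in the adenosquamous, p75 and high-Wnt comparisons, with median differences of 1.08, 0.94 and 1.39. Krt14, the basal keratin that the plaque holds, was at 7.79, 5.57, 5.56 and 4.56 in the adenosquamous carcinomas and at -0.17 to 4.10 in the solid ones. The groups did not overlap, which 0.408% of all genes also showed, and the difference was 3.49 (SE 0.70, limma adjusted p = 0.499). Krt5, its partner keratin, differed by 3.14 (SE 1.56, limma adjusted p = 0.872), with overlap. Col7a1, the anchoring fibril collagen, averaged 2.69 ± 1.31 (SD, n = 5) in the high-Wnt cluster and 0.49 ± 0.80 (SD, n = 7) in the low. The difference was 2.20 (SE 0.58, limma adjusted p = 0.12), and the groups overlapped. The medium-Wnt cluster averaged 3.19 (n = 5), so high Col7a1 was not particular to the high-Wnt cluster. Col7a1 was at 4.56 in p110-98, 3.86 in p110-374 and 3.42 in p110-225, the tumors of faint color, and at 3.22 in p110-121. Of the other tumors only p75-216 (3.49) lay above 3.22. The part of faint color in the Col7a1 values was not tested. Plec, which ties β4 to keratin, was below the reference in 16 of 17 tumors and differed by -0.28, -0.30 and -0.17 in the 3 comparisons.

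The wider lists held no called gene either. Of 20 measured genes of other laminins and basement membrane, 0 were called by limma in any comparison, and 2, 5 and 4 passed an unadjusted p under 0.05, with median differences of 0.05, -0.13 and 0.16. Of 16 genes for other laminin and matrix receptors, 0 were called by limma and 3, 6 and 2 passed unadjusted, with medians of -0.07, -0.06 and 0.05. Of 4 enzymes that process laminin-332, 0 were called by limma and 0, 0 and 2 passed unadjusted. Itgb1, the β1 chain that pairs with α3, ran from -1.92 to 0.01 and differed by -0.05, 0.06 and 0.06, with its color well above background in 7 of the 17 tumors.

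Promoter sequence, 250 bases before to 50 after a start in RefSeq on GRCm38.p6, a different build from that of the probes, was at hand for 6 members in 10 windows. None was at hand for Itgb4, Itga6 or Lama3, which were not searched. The 6 short words were searched on both strands. The AP-1 word TGACTCA, the TCF/LEF word CTTTGA and the CUX1 words ATCGAT and ATTGAT were in 0 of the 10 windows, against 5.2%, 16.0%, 0.925% and 7.54% of all 32851 promoters. The Sp1 word GGGCGG was in 5 of 10 windows, of Cd151, Dst, Itga3 and Lama5, against 35.7% of all. TATAAA was in 1 of 10, against 13.6%, and that 1 was Col17a1. Its 250 bases upstream, chr19:47692043-47692292 on the minus strand, are shown with both TATAAA words in capitals, which begin 140 and 91 bases before the start. These are matches of letters and not known sites.
Col17a1, upstream: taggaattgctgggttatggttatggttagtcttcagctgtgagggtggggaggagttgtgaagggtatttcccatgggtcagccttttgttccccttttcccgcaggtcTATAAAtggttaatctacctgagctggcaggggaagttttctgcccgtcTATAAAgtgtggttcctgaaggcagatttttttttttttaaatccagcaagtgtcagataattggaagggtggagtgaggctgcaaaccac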

How the data were processed

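The authors amplified tumor and reference RNA in 2 rounds and hybridized them in dye swaps to 2-color Agilent arrays. The deposited scanner files hold intensity and background values from Feature Extraction 9.5.3.1, not normalized, and the deposited table of processed values holds log2 ratios made by the authors. From the scanner files, outlier spots (0.545%) were left out, background was corrected by normexp (offset 50), loess was run within each of the 38 arrays with control spots at weight 0, spots of a probe were averaged, and the arrays of a tumor were averaged with the swapped sign turned. The deposited log2 values were matched within 4.98e-08 when loess used all spots with equal weight and outlier spots stayed in, so the values analysed here differ slightly from them. Each of the 41174 probes was named by accession (22951) or by the file's gene name, with older symbols updated through RefSeq (3109), and the brightest probe stood for a gene. Tests were limma 3.58.1 in R 4.3.3 over 27670 genes, with Benjamini-Hochberg adjustment, a threshold of 0.05, and 1 value per tumor. The fit over 5 histological types, 2 transgenes or 3 Wnt clusters used all 17 tumors. The fit was tested on simulated data. "Well above background" means so on every array of a tumor. The number of arrays, and of tumors behind them, limits the precision. Correlation p-values came from 100000 permutations, or exact enumeration within a transgene. The named genes were the 9 members with every probe, Plec, Krt5, Krt14, Col7a1 and Itgb1, any other list gene called in a comparison, Trp63 as a marker and genes most like the members. Some genes that fall under this rule are not reported here. Members and lists were chosen with earlier results of these data known. Alternatives covered background, normalization, dye, probe, blocks, subsets and left-out tumors.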

Additional observations from a re-analysis of the deposited data

Results flagged for a closer look

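Lama5 in p110-121, at -2.61, was the lowest of the 9 solid carcinomas and of the 8 p110 tumors, and stood apart from the nearest of either group at -0.69. Its tumor color was not well above background there. Lama5 in p110-416, at 0.89, was the highest of the 7 low-Wnt tumors and stood apart from the next at 0.27. Of 63 groups of tumors checked in this way, 3 held such a value, and chance flags about 1 in 20.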

How the results depend on the processing

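The 9 members kept 0 calls in the adenosquamous and high-Wnt comparisons under every alternative run. In the p75 comparison median centering called 3 and arrays with the tumor in Cy5 called 1 (Cd151, 0.78, limma adjusted p = 0.0443). Counts over all genes moved more, and the cause was not tested. For adenosquamous minus solid, Feature Extraction's processed signals gave 1 called gene, and leaving out 1 tumor gave 0 to 31, the 31 without p75-101. For p75 minus p110 the counts were 312 with processed signals, 1190 with median centering, 65 with arrays scaled to one spread, 318 in Cy5 and 69 in Cy3 only, 0 in solid carcinomas alone (3 against 6 tumors), 4 with histological type as a block, 78 without the 3 faintest tumors, 354 without those and p110-121, and 37 to 1069 without 1 tumor (37 without p75-47, 1069 without p110-314, and off by over 1.5 times without any of 13 tumors). For high-Wnt minus low-Wnt they were 0 without background correction, with median centering and with scaled arrays, 6 with processed signals, 7 in Cy5, 10 in Cy3, 21 with trend and robust estimation, 143 with the 2 clusters alone, 130 with scan year as a block, 10 in p75 and 398 in p110 tumors alone (whose high-Wnt tumors are both faint), 40 without the 3 faintest tumors, and 7 to 137 without 1 tumor (7 without p110-360, 137 without p75-216, and off by that much without any of 11 tumors). Itgb4 and Col17a1 kept their direction in all 3 comparisons under these alternatives. The Itgb4 difference ranged from 0.94 to 2.01, 0.42 to 2.49 and 0.69 (median centering) to 1.89 in the adenosquamous, p75 and high-Wnt comparisons, and that of Col17a1 from 1.01 to 4.00, 1.35 to 4.21 and 1.09 to 3.55.

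Differences that changed sign were mostly small. For adenosquamous minus solid, Dst was 0.07 as the mean of all probes, 0.06 in p75 tumors alone, 0.21 with scan year as a block and 0.01 without the 3 faintest tumors and p110-121. Under the same settings Cd151 was -0.27 in p75 tumors and -0.28 with the block, Itga6 was -0.01 without those 4 tumors, and Lama3 was -0.02 in Cy3. For p75 minus p110, Lama3 was -0.03 without background correction, -0.04 in Cy3 and -0.05 both in solid carcinomas alone and with histological type as a block. Itga3 was 0.10 with processed signals, 0.52 with median centering, 0.04 with scaled arrays, 0.02 as the mean of all probes, 0.06 in Cy3, 0.07 without the 3 faintest tumors and 0.11 without those and p110-121, and there Lamb3 was -0.12, Itga6 -0.36 and Dst 0.02, which it also was with median centering. For high-Wnt minus low-Wnt, Lama5 was -0.60 with median centering and -0.48 in p110 tumors. Lama3 was 0.01 with scaled arrays, in Cy5 and with slide as a random block, 0.00 with scan day as one, 0.24 as the mean of all probes, 0.03 in p110 tumors and 0.49 with the probe above background in the most tumors. Leaving out 1 tumor gave Itga3 -0.03 to 0.30 (adenosquamous) and -0.12 to 0.01 (p75), and Lama3 -0.02 to 0.03 (p75) and -0.04 to 0.03 (high-Wnt).

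Among the correlations, Itga6 with Itgb4 gave -0.31 within p75, -0.11 within p110 and -0.31 without the 2 tumors farthest from the Itga6 median, and 0.65 with median centering (adjusted permutation p = 0.00702). Lamb3 with Itgb4 gave -0.19 within p75. Itga3 with Cd151 gave 0.80 and Itga6 with Cd151 0.90 with median centering (adjusted permutation p = 0.00054 and 6e-05). Itgb4 with Col17a1 gave 0.77 within p75 and 0.69 within p110 (adjusted exact permutation p of 0.13 and 0.369).

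No paired analysis was possible because the replicate numbers are only an order of samples and pair no tumors. The settings without the 3 faintest tumors, with or without p110-121, and the probe above background in the most tumors were chosen after seeing the data. The 3 faint tumors and Lama3, Lamb3 and Itga3, above background in 7 to 13 tumors, limit what low signal can show.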

Other observations

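Some genes of the wider lists, named here after their values were seen, had groups that did not overlap: 2 of 20 genes of other laminins and basement membrane in the high-Wnt comparison, where 1.71% of all genes did not, and 1 of 16 of other laminin and matrix receptors in the adenosquamous comparison, where 0.408% did not. Col18a1, whose product is the basement membrane collagen XVIII, averaged 0.84 ± 1.58 (SD, n = 5) in the high-Wnt and -2.06 ± 0.65 (SD, n = 7) in the low-Wnt tumors, a difference of 2.89 (SE 0.61) with a limma adjusted p of 0.0614. Fras1, a basement membrane protein of skin, averaged 0.39 ± 1.19 (SD, n = 5) and -0.81 ± 0.39 (SD, n = 7), with a limma adjusted p of 0.215 and a tumor color well above background in only 2 and 1 of these tumors. Sdc4, a heparan sulfate proteoglycan that works with integrins, averaged -0.27 ± 0.09 (SD, n = 4) in adenosquamous and 0.38 ± 0.20 (SD, n = 9) in solid carcinomas, a difference of -0.64 (SE 0.11) with a limma adjusted p of 0.417. None of the 3 passed the threshold over all genes.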
